A study of Sus scrofa with 61 samples.

Results

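Insulin signalling and glucose uptake were followed in fetal pig muscle through 10 genes, taken in the order in which the signal passes: the receptor (INSR), its docking proteins (IRS1, IRS2), the regulatory subunit of PI3-kinase (PIK3R1), the AKT kinases (AKT1, AKT2), the glucose carriers GLUT1 (SLC2A1) and GLUT4 (SLC2A4), hexokinase 2 (HK2) and TXNIP, an inhibitor of glucose uptake. A probe was assigned to a gene when the array named it by that symbol. By this rule 9 of the 10 genes had a probe, 28 probes in all, among 10348 gene symbols measured on the array. IRS2 had none and is not described with them. Of the 28 probes, 27 passed the filter on dim probes. Each gene is described by its main probe, the one with the highest mean signal, and its other probes are given beside it.

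The samples were longissimus muscle of 61 male fetuses taken by caesarean section, with 1 one-colour array per fetus. LW fetuses were purebred Large White, a lean European breed, and MS fetuses purebred Meishan, a Chinese breed known for high piglet survival. The crossbred LWMS fetuses were carried by MS sows and sired by LW boars, whereas MSLW fetuses came from LW sows and MS sires. At day 90 of gestation there were 8 fetuses of each genotype, and at day 110, shortly before birth, there were 9 LW, 7 MS, 8 LWMS and 5 MSLW fetuses. Sows were inseminated with semen of both breeds, so that purebred and crossbred fetuses shared litters. The sow of each fetus was not used here, and littermates count as separate fetuses. Values are log2 of the background-corrected spot signal after quantile normalization, so that a difference of 1 stands for a doubled signal. Differences are called past the threshold at a Benjamini-Hochberg adjusted p under 1% in limma, over 42436 probes.

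When insulin binds its receptor, the receptor phosphorylates the IRS proteins, which recruit PI3-kinase. The lipid it makes brings AKT to the membrane, and AKT releases vesicles that carry GLUT4 to the surface of the muscle fibre. GLUT1 takes up glucose without insulin and is the main carrier of early muscle, whereas GLUT4 is the carrier of mature fibres. Hexokinase traps the glucose as glucose 6-phosphate. TXNIP binds both carriers and promotes their removal from the cell surface.

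Arrays had between 34347 and 45684 spots well above background, and at most 2 saturated spots. They lay on 8 slides, each with 6 to 8 of the 8 groups. Of the 6 muscle fibre markers checked against the tissue label, ACTA1, CKM, DES, MYLPF and TNNT3 each had a mean log2 signal above 18, and MB had 9.32. Markers of several cell types changed with age. All 5 fibroblast markers (COL1A1, COL3A1, DCN, LUM, PDGFRA) were lower at day 110, and the mean of their log2 values ranged from 13.65 to 14.11 at day 90 and from 11.98 to 13.12 at day 110. Of the 6 muscle fibre markers 4 were higher and 1 was lower. Among endothelial markers 3 of 5 were lower and 1 was higher, and among adipocyte markers 3 of 5 were lower and 1 was higher. Erythroid markers gave 2 lower and 1 higher of 4 measured, leukocyte markers 2 lower of 4, and Schwann cell markers 2 higher of 4. These counts stand beside 35.0% lower and 37.3% higher over all probes. In whole tissue, fewer cells of a type and less RNA per cell cannot be told apart, and the part of these markers in the changes below was not tested.

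From day 90 to day 110, over the 4 genotypes, 7 of the 9 genes rose, namely SLC2A4, SLC2A1, TXNIP, PIK3R1, INSR, AKT2 and HK2. The AKT2 rise rested on 1 probe close to background, well above it on 50 of 61 arrays. AKT1 fell, and so did the main probe of IRS1, although this fall was absent under scaling to the 75th percentile and was opposed by other IRS1 probes. Over all probes, 37.3% were called higher and 35.0% lower at day 110, so a call by itself was common. The median difference of the 9 genes was 0.78 on the log2 scale, against 0.04 over all probes. These genes were chosen with earlier results of these data known, and each entered by its brightest probe. The medians are therefore a description and no test of the set. In the F test of the 8 groups, 8 of the 9 genes passed, beside 72.2% of all probes, and IRS1 had an adjusted p of 0.0114.

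**Figure D1:**
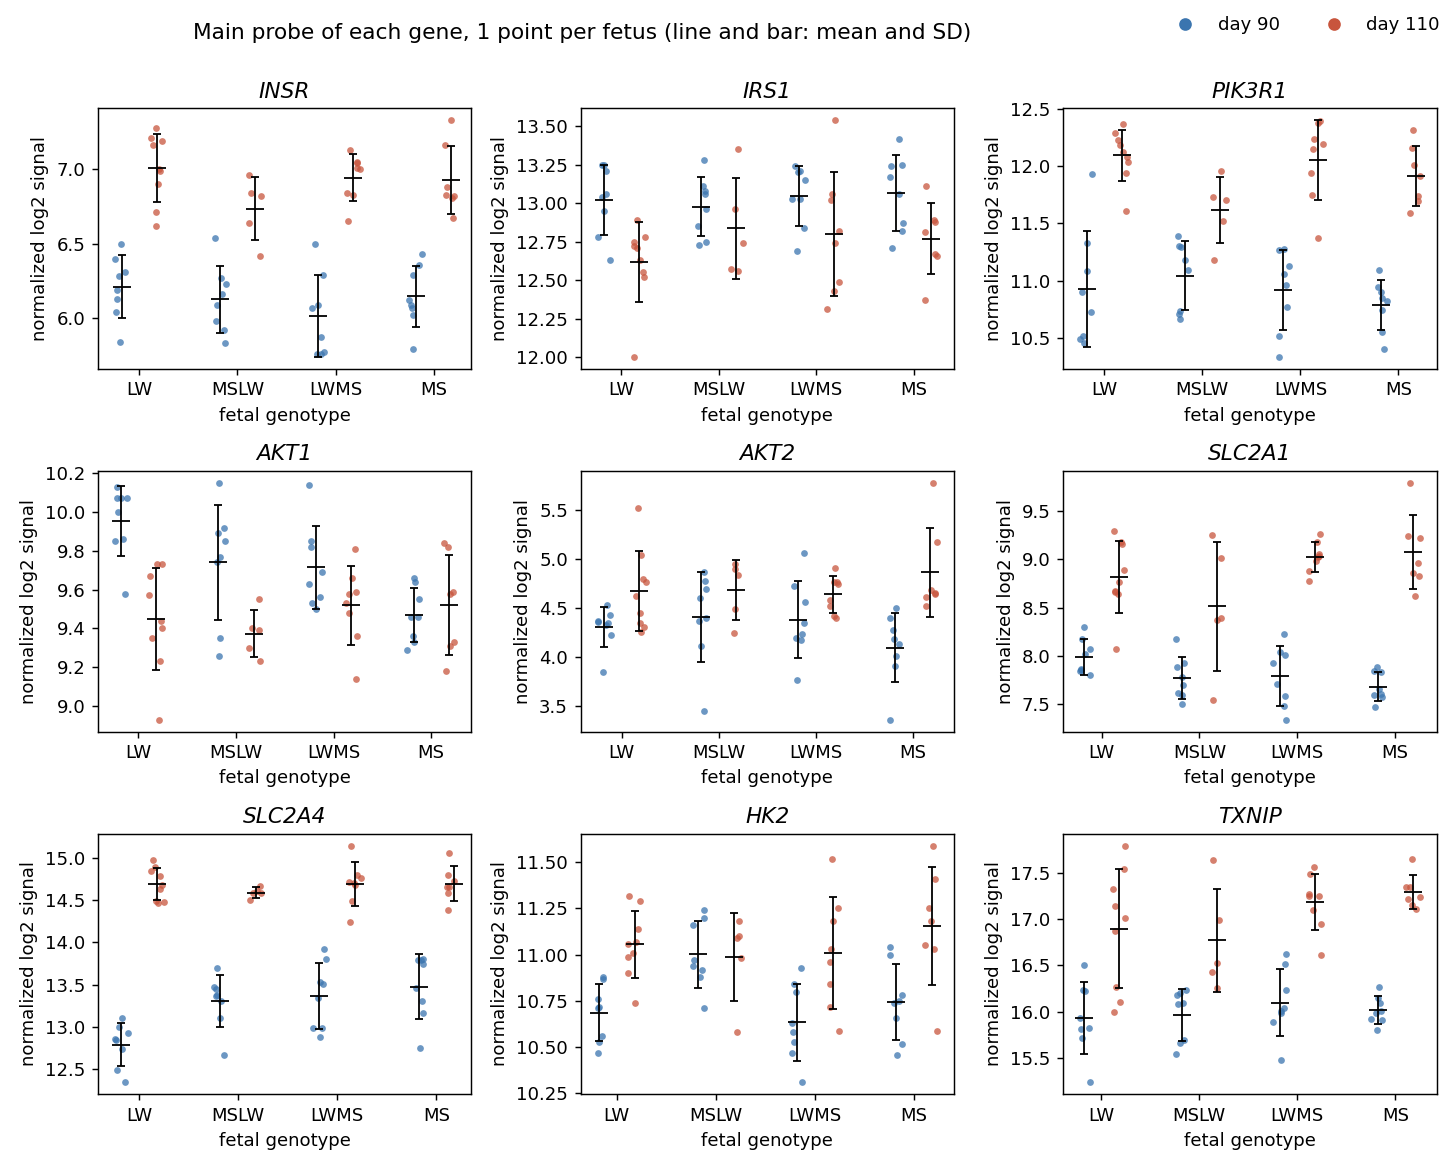
Normalized log2 signal (vertical axis, scaled per panel) of the main probe of the 9 genes by fetal genotype (horizontal axis), with 1 point per fetus and the mean with its SD in black. SLC2A4 shows no overlap between the days, with all day-90 fetuses at or below 13.92 and all day-110 fetuses at or above 14.24.

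SLC2A4, the insulin-dependent carrier, had the largest age change of the 9 main probes, 1.44 ± 0.07 on the log2 scale (SE; 2.70-fold; limma adjusted p = 1.47e-25). In LW, its log2 level ran from 12.34 over a median of 12.85 to 13.10 at day 90, and from 14.47 over 14.68 to 14.98 at day 110. In MS, the lowest, median and highest fetus were at 12.75, 13.60 and 13.81 at day 90 and at 14.38, 14.66 and 15.06 at day 110. LWMS fetuses ran from 12.88 over 13.42 to 13.92 at day 90, and from 14.24 over 14.71 to 15.15 at day 110. Every day-110 fetus thus lay above every day-90 fetus, in each genotype and over all of them. Of the 9 main probes SLC2A4 alone was separated in this way, as were 10.1% of all probes. In MSLW, day 90 ran from 12.67 over 13.37 to 13.70, and the 5 fetuses of day 110 were at 14.67, 14.59, 14.50, 14.61 and 14.59. These 5 were the tightest group of the gene, with an SD of 0.06.

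SLC2A4 is also the gene for which the probes can be checked against each other, so stretches of 30 of the 60 bases of 4 of its 5 probes are shown, as the array lists them, 5′ to 3′. Capitals in the first pair mark the bases at which the brightest probe and a dark one differ in this stretch, and capitals in the second pair mark the stretch that both probes share:
A_72_P440846: aaacCgaaggtctgCtgtactaaatgtata
A_72_P413673: aaacTgaaggtctgTtgtactaaatgtata
O9845: TCCTACGAGATGCTCATTCTTGGACGGTTC
A_72_P448551: TCCTACGAGATGCTCATTCTTGGACGGTTC

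A_72_P440846 is the main probe, which the array places at base 2375 of the transcript. A_72_P413673 carried 2 other bases in this stretch and was well above background on 1 of the 61 arrays, so it was not tested. O9845 and A_72_P448551 have the same 60 bases and serve as a repeat measurement within each array. Their difference had a median of 0.08 and stayed within 0.5 of it on 60 of 61 arrays, with an SD of 0.14 over these 60. On the remaining array, MSLW replicate 2 of day 90, A_72_P448551 read 2.13 and O9845 read 7.08, and the spot had not been marked as non-uniform. The age change was 1.83 ± 0.07 (SE) for A_72_P101881, 1.69 ± 0.07 for O9845 and 1.93 ± 0.17 for A_72_P448551. All 4 probes kept therefore called the rise, and the brightest of them gave the smallest one.

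At day 90, SLC2A4 was already higher in MS than in LW. The main probe differed by 0.69 ± 0.14 (SE; 1.61-fold; limma adjusted p = 0.000184), with 12.79 ± 0.26 in LW (SD, n = 8) and 13.47 ± 0.39 in MS (SD, n = 8). The LW and MS fetuses overlapped between 12.75 and 13.10. Each of the 8 slides held a single LW and a single MS fetus of day 90. On each the MS fetus was the higher one, by 0.20 to 1.05, these being the same fetuses as in the test. Markers of other cells and of the fibre differed between the breeds at this day too, MS minus LW being 1.14 for MB, 0.23 for CKM, -0.38 for TNNT3, 1.18 for S100B, -0.78 for FABP4 and -0.71 for KDR, each past the threshold, and their part in the SLC2A4 and AKT1 differences was not tested. Of the other probes, O9845 differed by 0.52 ± 0.13 (adjusted p = 0.00279), A_72_P448551 by 0.51 ± 0.33 (adjusted p = 0.324) and A_72_P101881 by 0.30 ± 0.14 (adjusted p = 0.133). All 4 estimates were positive and 2 of them passed. With the median of the gene's probes in place of the main probe, the difference was 0.40 (adjusted p = 0.0240).

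For the main probe, both crosses were closer to MS than to LW at day 90, with MSLW at 13.31 ± 0.31 and LWMS at 13.37 ± 0.39 (SD, n = 8 each). Means of LW, MSLW, LWMS and MS were 6.74, 7.03, 7.13 and 7.27 for O9845, and 7.97, 8.19, 8.29 and 8.27 for A_72_P101881. With A_72_P448551 they were 6.59, 6.33, 7.01 and 7.10, the MSLW mean including the array that read 2.13. The mid-parent value was not tested. In comparisons of the main probe added after its values were seen, LWMS exceeded LW by 0.58 ± 0.14 (adjusted p = 0.00646). For MSLW the difference from LW was 0.52 ± 0.14 (adjusted p = 0.0205), which missed the threshold. MS minus LWMS was 0.11, with a 95% confidence interval from -0.18 to 0.39, and MS minus MSLW was 0.17, from -0.11 to 0.45. In the order LW, MSLW, LWMS, MS, no step between neighbours passed. At day 110 the 4 group means lay between 14.59 and 14.70, and MS minus LW was 0.00 for the main probe (95% confidence interval -0.28 to 0.29). The other probes had positive estimates, 0.33 ± 0.14 for O9845 (adjusted p = 0.0433), 0.30 ± 0.34 for A_72_P448551 (adjusted p = 0.504) and 0.12 ± 0.14 for A_72_P101881 (adjusted p = 0.513), none past the threshold, so that the estimate of 0.00 is that of the main probe alone.

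SLC2A4 rose by 1.91 ± 0.14 in LW and 1.22 ± 0.15 in MS, by 1.33 ± 0.14 in LWMS and by 1.29 ± 0.16 in MSLW, each past the threshold. The difference between the MS and LW rises was -0.68 ± 0.20 (limma adjusted p = 0.0159) and did not pass at 1%, but it did with the slide as a block (-0.74, adjusted p = 0.000770) and without MS replicate 8 of day 90 (-0.79, adjusted p = 0.00406). The probes disagreed on its size. It was -0.18 for A_72_P101881, -0.19 for O9845 and -0.20 for A_72_P448551, with adjusted p between 0.564 and 0.831.

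**Figure D2:**
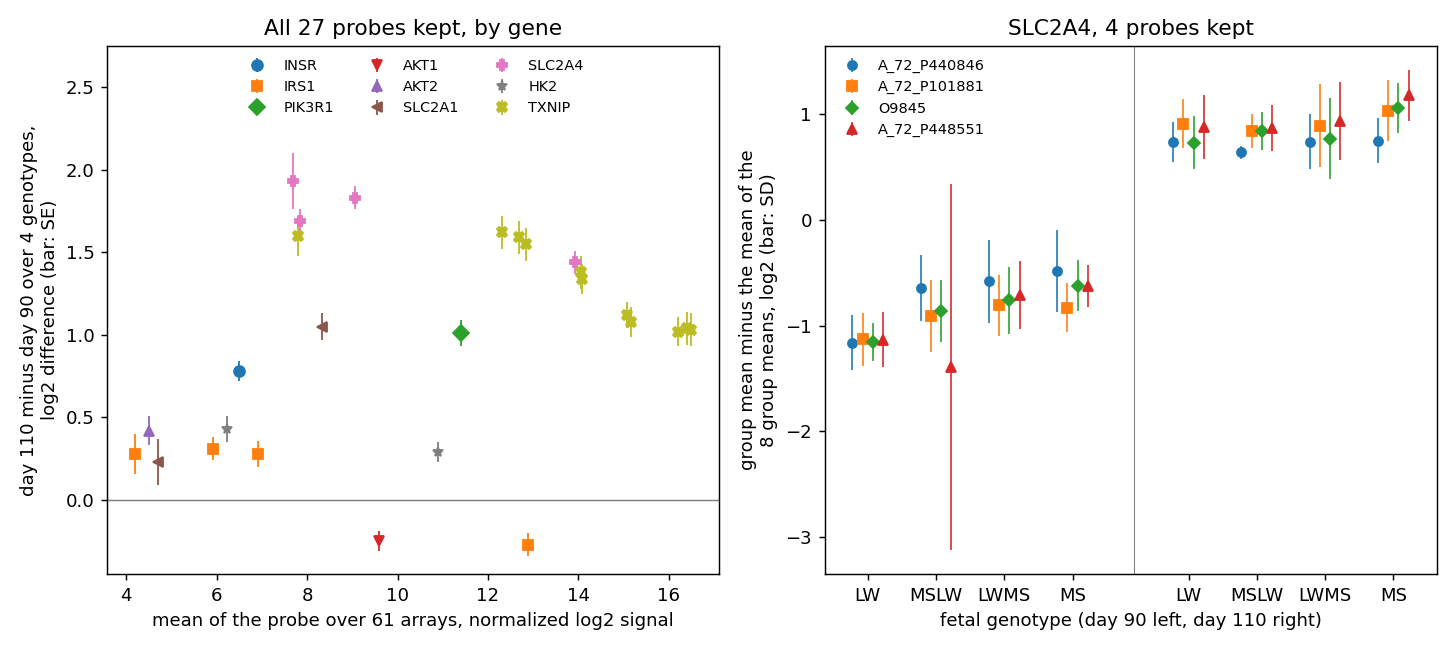
Left, age change of each of the 27 probes kept (vertical axis, log2 difference with SE) against its mean signal over the arrays (horizontal axis, log2), which is a property of the probe and no measure of abundance. Right, the 8 group means of the 4 SLC2A4 probes (vertical axis, log2, each centred on its own mean, with SD) by genotype and day. LW at day 90 lies lowest for 3 of the 4 probes, while the long bar belongs to the MSLW array on which 1 probe read 2.13.

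SLC2A1, the insulin-independent carrier, rose by 1.05 ± 0.08 (SE; 2.07-fold; limma adjusted p = 1.19e-17) and passed in all 4 genotypes. In LW it ran from 7.80 over 7.94 to 8.30 at day 90 and from 8.07 over 8.76 to 9.29 at day 110. In MS the range was from 7.47 over 7.64 to 7.88 at day 90, and from 8.62 over 8.96 to 9.79 at day 110, without overlap. LWMS ran from 7.34 over 7.82 to 8.23 and then from 8.78 over 9.03 to 9.26, again without overlap. How many of all probes separate the days within a genotype was not counted. MSLW ran from 7.50 over 7.74 to 8.17 at day 90. Its 5 fetuses of day 110 were spread over 9.25, 9.01, 7.54, 8.37 and 8.39, the third of them inside the day-90 range.

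By genotype, the rise of SLC2A1 was 0.83 ± 0.15 in LW and 0.74 ± 0.18 in MSLW, the fetuses of LW sows, and 1.39 ± 0.16 in MS and 1.23 ± 0.16 in LWMS, those of MS sows. The interaction of maternal genotype with age was 0.52 ± 0.16, with a limma adjusted p of 0.0326, and did not pass. Without MSLW replicate 1 of day 110 it was 0.59 with an adjusted p of 0.00978, the only 1 of 16 fits under 1%. Over these fits the interaction ran from 0.37 to 0.59, with limma adjusted p up to 0.103. The other probe of SLC2A1, O10154, was well above background on 56 of 61 arrays, and its age change was 0.23 ± 0.14 (adjusted p = 0.136). With the median over both probes SLC2A1 rose by 0.64 (adjusted p = 2.65e-11). The strand of its listed sequence was not checked against a transcript.

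INSR, the receptor itself, rose by 0.78 ± 0.06 (1.72-fold; limma adjusted p = 1.61e-18), or by 0.46 after normexp background correction (adjusted p = 1.67e-17). It was measured by 1 probe, whose first 30 of 60 bases are given here with those of the single probes of PIK3R1 and AKT1, as these 3 genes rest on them alone:
INSR: aaatttgtcatggatggaggctatctggat
PIK3R1: ttggtcttttgacgagagggaggatgtcat
AKT1: atgtgtatgagaagaagctcagcccaccgt

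In LW, INSR ran from 5.84 over 6.23 to 6.50 at day 90 and from 6.62 over 7.0 to 7.28 at day 110. MS fetuses ran from 5.79 over 6.11 to 6.43 and then from 6.67 over 6.83 to 7.33, and LWMS fetuses from 5.76 over 5.97 to 6.50 and then from 6.65 over 7.01 to 7.13. None of these genotypes overlapped between days, but the share of all probes without such overlap within a genotype was not counted. In MSLW the values were 5.83, 6.13 and 6.54 (lowest, median, highest) at day 90, and the 5 fetuses of day 110 read 6.82, 6.96, 6.64, 6.84 and 6.42. Each genotype passed, with rises of 0.80 in LW, 0.78 in MS, 0.93 for LWMS and 0.61 for MSLW (SE 0.11 to 0.13). MS and LW fetuses differed by -0.06 at day 90 (95% confidence interval -0.29 to 0.16) and by -0.08 at day 110 (-0.30 to 0.14).

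PIK3R1, which encodes the p85-alpha, p55-alpha and p50-alpha subunits that hold the PI3-kinase catalytic subunit at the IRS proteins, rose by 1.01 ± 0.08 (2.01-fold; limma adjusted p = 2.05e-16). LW ran from 10.45 over 10.81 to 11.93 at day 90, with 1 fetus well above the median, and from 11.61 over 12.13 to 12.37 at day 110. MS ran from 10.40 over 10.84 to 11.09 and then from 11.59 over 11.92 to 12.32, and LWMS from 10.33 over 11.01 to 11.28 and then from 11.37 over 12.17 to 12.40. MS and LWMS did not overlap between days, and how common this is over all probes was not counted. MSLW ran from 10.66 over 11.14 to 11.39 at day 90, and its day-110 fetuses read 11.52, 11.96, 11.73, 11.18 and 11.71. The rise was 1.17 ± 0.16 in LW, 1.13 ± 0.17 in MS and 1.14 ± 0.16 in LWMS. In MSLW it was 0.58 ± 0.18 (adjusted p = 0.00638), a call that was lost with the slide as a block (0.56, adjusted p = 0.0108) and without MSLW replicate 2, 3 or 5 of day 110, where it was 0.49, 0.55 and 0.55.

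AKT1, the widely expressed AKT kinase, fell by 0.25 ± 0.06 on the log2 scale (limma adjusted p = 8.03e-05), a change that passed within LW only. In LW, it went from 9.58, 10.03 and 10.13 (lowest, median, highest) at day 90 to 8.93, 9.44 and 9.73 at day 110, a change of -0.50 ± 0.11 (adjusted p = 6.43e-05). MS ran from 9.29 over 9.46 to 9.66 at day 90 and from 9.18 over 9.58 to 9.84 at day 110, and the change of 0.05 ± 0.11 did not pass (95% confidence interval -0.18 to 0.28). The days overlapped in every genotype. LWMS ran from 9.50 over 9.66 to 10.14 and then from 9.14 over 9.55 to 9.81, a change of -0.20 ± 0.11 (adjusted p = 0.120). MSLW ran from 9.26 over 9.81 to 10.15 at day 90, its day-110 fetuses read 9.55, 9.39, 9.40, 9.23 and 9.30, and the change was -0.37 ± 0.13 (adjusted p = 0.0116). The difference between the MS and LW age changes was 0.56 ± 0.16 (adjusted p = 0.0124), just short of the threshold.

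At day 90, AKT1 was lower in MS than in LW, the difference being -0.48 ± 0.11 (0.715-fold; limma adjusted p = 0.000763), with 9.95 ± 0.18 in LW and 9.47 ± 0.14 in MS (SD, n = 8 each). A single LW fetus, at 9.58, lay within the MS range. On 8 of 8 slides the MS fetus read lower than the single LW fetus of day 90 on that slide. The differences, from the same fetuses as in the test, ran from -0.71 to -0.25. The crosses lay between the purebreds at 9.74 ± 0.30 in MSLW and 9.71 ± 0.21 in LWMS. In the order LW, MSLW, LWMS, MS, no step between neighbours passed. In the comparisons added after the values were seen, no difference between a cross and a purebred passed (adjusted p from 0.200 to 0.344). At day 110, MS minus LW was 0.07 (95% confidence interval -0.15 to 0.30). The main probes of AKT1 and SLC2A4 thus differed between the breeds in opposite directions at day 90, and for neither did the difference pass at day 110.

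AKT2, the isoform through which insulin acts on GLUT4 in muscle, was measured by 1 probe close to background, well above it on 50 of 61 arrays, whose strand was not checked against a transcript. Its age change was 0.42 ± 0.09 (limma adjusted p = 5.65e-05). The log2 signal in MS ran from 3.36 over 4.15 to 4.50 at day 90 and from 4.52 over 4.65 to 5.78 at day 110, with 6 of 8 and 6 of 7 arrays well above background, and the change of 0.77 ± 0.18 was past the threshold (adjusted p = 0.000254). In LW it was 0.37 ± 0.17 (adjusted p = 0.0627), in LWMS 0.26 ± 0.18 and in MSLW 0.27 ± 0.20. The MS change minus that of LW was 0.40 ± 0.25 (95% confidence interval -0.11 to 0.90; adjusted p = 0.318), and the MS change was not tested against those of the crosses. The size of the AKT2 change depended on the signal used, with 0.20 for the median spot signal, 0.21 for the deposited log2 values and 0.13 after normexp correction over the genotypes, and 0.36, 0.35 and 0.23 in MS, each past the threshold.

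IRS1, the docking protein that couples the receptor to PI3-kinase in muscle, gave different directions by probe. The first 30 of 60 bases of its 4 probes are shown for that reason, with no capitals:
A_72_P371473: gaaactacacccaacctggaatttcttcct
A_72_P537138: atggtcttaactacatagacctggatttgg
O11228: tgactacatgaccatgcagatgggttgtcc
A_72_P443378: tgattctgtggtggcccagaatatgcatga

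The main probe, A_72_P371473, changed by -0.27 ± 0.07 (limma adjusted p = 0.000337) over the genotypes, and by -0.41 ± 0.13 in LW (adjusted p = 0.00586). Scaled to the 75th percentile instead, it changed by 0.01 (adjusted p = 0.907). A_72_P537138 rose by 0.28 ± 0.08 (adjusted p = 0.00101) and O11228 by 0.31 ± 0.07 (adjusted p = 0.000205). A_72_P443378, well above background on 44 arrays, changed by 0.28 ± 0.12 (adjusted p = 0.0359). The array places the main probe at base 5222 of one transcript record, and A_72_P537138 and A_72_P443378 at bases 3520 and 722 of another record. With the median over the probes, IRS1 changed by 0.29 (adjusted p = 0.000157), so its direction with age is not settled by these probes.

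The main probe of IRS1 ran from 12.63 over 13.05 to 13.25 in LW and from 12.71 over 13.11 to 13.42 in MS at day 90, and from 12.00 over 12.71 to 12.89 in LW and from 12.37 over 12.81 to 13.11 in MS at day 110. The days overlapped in all genotypes. MS minus LW at day 110 was 0.16 ± 0.13 for this probe (adjusted p = 0.364), but 0.64 ± 0.15 for A_72_P537138 (adjusted p = 0.000528) and 0.47 ± 0.14 for O11228 (adjusted p = 0.00704). All 4 probes had a positive estimate there, the dim one 0.46 ± 0.24 (adjusted p = 0.119). At day 90 the 4 estimates lay between 0.05 and 0.18, and none passed.

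HK2, the hexokinase of insulin-responsive tissue, rose by 0.29 ± 0.06 (1.22-fold; limma adjusted p = 1.90e-05). In LW it ran from 10.47 over 10.71 to 10.88 at day 90 and from 10.74 over 11.06 to 11.32 at day 110, and in MS from 10.46 over 10.75 to 11.04 and then from 10.59 over 11.18 to 11.59. LWMS ran from 10.31 over 10.60 to 10.93 and then from 10.59 over 11.00 to 11.52. Changes were 0.37 ± 0.11 in LW, 0.41 ± 0.12 in MS and 0.38 ± 0.11 in LWMS, each past the threshold, the LW call being lost with the median spot signal, the deposited log2 values or normexp correction (0.33 in each, adjusted p 0.0159, 0.0154 and 0.0112).

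In MSLW, HK2 read 10.71, 10.95 and 11.24 (lowest, median, highest) at day 90 and 11.18, 10.98, 10.58, 11.09 and 11.10 in the 5 fetuses of day 110, a change of -0.02 ± 0.13 (95% confidence interval -0.28 to 0.24). At day 90 LWMS minus MSLW was -0.37 ± 0.11, with a limma adjusted p of 0.135, which did not pass. The other HK2 probe, A_72_P071346, also had its smallest change in MSLW, with changes of 0.51 ± 0.15 (LW), 0.62 ± 0.16 (MS), 0.54 ± 0.15 (LWMS) and 0.05 ± 0.17 (MSLW), and of 0.43 ± 0.08 over the genotypes.

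TXNIP, the arrestin-domain protein that lowers glucose uptake and binds thioredoxin, rose by 1.03 ± 0.10 with its main probe (2.04-fold; limma adjusted p = 4.67e-14), or by 1.57 under 75th-percentile scaling (adjusted p = 1.08e-20). LW ran from 15.24 over 15.88 to 16.50 at day 90 and from 16.00 over 17.01 to 17.79 at day 110, and MS from 15.80 over 16.00 to 16.27 and then from 17.11 over 17.24 to 17.65. The MS fetuses of day 110 were close together (SD 0.18, n = 7), and the LW fetuses were widely spread (SD 0.64, n = 9). LWMS ran from 15.48 over 16.03 to 16.62 and then from 16.61 over 17.25 to 17.56, and MSLW from 15.55 over 16.09 to 16.24 at day 90. At day 110 the MSLW fetuses read 17.64, 16.99, 16.53, 16.26 and 16.43, and without the first of them the MSLW change of 0.80 ± 0.22 became 0.59 (adjusted p = 0.0244), no longer past the threshold.

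All 11 TXNIP probes called the rise, with changes from 1.02 to 1.62. They are not independent, since 3 of them overlap by 28 to 55 bases and another pair by 17. The 3 brightest probes gave 1.02 to 1.04, and the 4 dimmest 1.55 to 1.62. For MS minus LW at day 110, the 11 estimates ran from 0.32 to 0.83. The only one to pass was O5767, with 0.83 ± 0.23 (limma adjusted p = 0.00334), where LW ran from 7.45 over 8.23 to 9.21 and MS from 8.86 over 9.22 to 9.63. With 75th-percentile scaling the main probe passed too (0.72, adjusted p = 0.00287). At day 90 no TXNIP probe passed, with estimates from -0.02 to 0.20.

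**Figure D3:**
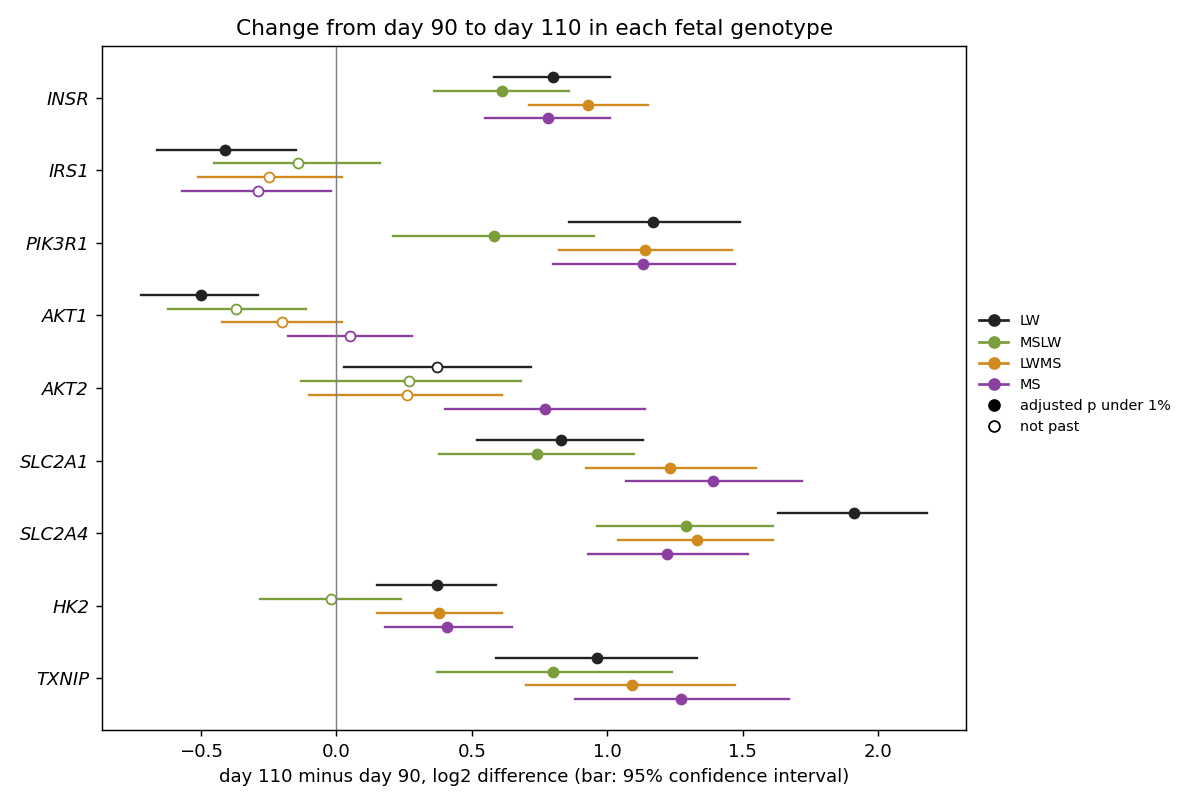
Day 110 minus day 90 of the main probe of the 9 genes (vertical axis) as a log2 difference with its 95% confidence interval (horizontal axis) in each genotype. Filled points passed the threshold. The rise of SLC2A4 was 1.91 in LW against 1.22 to 1.33 elsewhere, and the fall of AKT1 passed in LW alone.

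Counted over the main probes, 8 of the 9 genes changed with age in LW (45.3% of all probes), 7 in MS (56.7%), 6 in LWMS (50.9%) and 5 in MSLW (44.6%). MSLW had the fewest day-110 fetuses. INSR, PIK3R1, SLC2A1, SLC2A4 and TXNIP passed in all 4 genotypes. Between the purebreds, 2 of 9 genes differed at day 90 (SLC2A4 and AKT1), beside 12.8% of all probes. At day 110 none of the 9 main probes passed in limma, beside 29.0% of all probes called, and 1 had an unadjusted p under 0.05. The difference between the MS and LW age changes passed for none, with 5.95% of probes called, and 3 genes had an unadjusted p under 0.05. How many of all probes fell under this unadjusted cut was not counted in either comparison, so these counts have no share to be read against.

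The reciprocal crosses have the same expected autosomal share of LW and MS, with the parental breeds exchanged. Their comparison thus addresses the origin of the alleles and the sow. In these male fetuses it also takes in the breed of the X, Y and mitochondrial chromosomes. Of the 9 genes none passed for LWMS minus MSLW in limma, at day 90 (1 with an unadjusted p under 0.05, HK2) or at day 110 (2, PIK3R1 and SLC2A1). Over all probes 0.500% and 0.912% were called. In the model of parental genotypes, none passed for maternal or for paternal genotype by age, where 3.05% and 0.462% of probes were called. The unadjusted p was under 0.05 for 3 genes in the maternal interaction (AKT1, SLC2A1 and SLC2A4) and for 1 in the paternal (SLC2A4). The share of all probes with an unadjusted p under 0.05 was not counted. For SLC2A4 the maternal and the paternal interaction were both -0.35 ± 0.15.

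Around these genes, 110 genes of the pathway were listed in 9 groups, the 10 described above included, and 88 of them had a probe that passed the filter. With age, 47 rose, 29 fell and 12 did not pass, with a median change of 0.20. The shares stand beside 37.3% higher and 35.0% lower over all probes. Gene symbols of SHC1, PIK3R3, FOXO1, FOXO3, SLC2A12 and HK1 came from the study's own lists of probes, which were chosen on these samples.

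Among receptors and adaptors, 3 of 7 rose and 3 fell. IGF1R, the receptor of insulin-like growth factor 1, rose by 0.34 ± 0.07 and SOS1, which activates RAS, by 0.26 ± 0.07, whereas the adaptor SHC1 fell by 1.01 ± 0.04 and SH2B1 by 0.41 ± 0.04 on the log2 scale. Of the genes that brake the signal, 3 of 9 rose and 4 fell. GRB10, which binds and inhibits the receptor, rose by 1.77 ± 0.07, with all 7 of its probes past the threshold (1.33 to 2.62), and the lipid phosphatase INPPL1 rose by 0.41 ± 0.06. GRB14, its relative, fell by 0.82 ± 0.09 and SOCS3 by 0.70 ± 0.08. GRB10 and GRB14 thus moved in opposite directions.

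The same was true within PI3-kinase, where 2 of 4 subunits rose and 2 fell. Beside the rise of PIK3R1, the catalytic subunit PIK3CA rose by 0.34 ± 0.08, while the regulatory subunits PIK3R2 and PIK3R3 fell by 1.51 ± 0.05 and 0.60 ± 0.07. A second PIK3R2 probe rose by 0.58. Of AKT and the kinases and complexes that activate it, 7 of 9 rose and 2 fell. MLST8, a shared subunit of both mTOR complexes, rose by 1.21 ± 0.05 and MAPKAP1, a subunit of mTORC2, by 0.58 ± 0.04, and the atypical kinase PRKCI fell by 0.28 ± 0.07.

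Targets of AKT and mTOR rose in 7 of 10 cases, and 1 fell. EIF4EBP1, which holds back translation, rose by 1.32 ± 0.06 and the transcription factor FOXO3 by 1.25 ± 0.06 (4 of 4 probes). BAD, a cell death factor, fell by 0.56 ± 0.04. In the traffic of GLUT4 vesicles, 6 of 18 genes rose, 8 fell and 4 did not pass. TBC1D4, the AKT substrate that holds vesicles back, rose by 0.56 ± 0.07. RAB13 fell by 1.53 ± 0.05, and TBC1D1 by 0.75 ± 0.04 with its main probe, while another TBC1D1 probe rose by 0.29.

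Of the glucose carriers and hexokinases, 10 of 15 rose and 5 fell. SLC2A12, which encodes GLUT12, rose by 1.13 ± 0.14 and SLC2A3 (GLUT3) by 0.56 ± 0.12. HK1, the hexokinase of most tissues, fell by 1.16 ± 0.04, with 3 of 3 probes, as HK2 rose. SLC2A12 also differed between the breeds. MS minus LW was 1.36 ± 0.27 at day 90 (limma adjusted p = 9.74e-05). At day 110 it was 2.64 ± 0.27 (adjusted p = 1.04e-11). For HK1 it was -0.28 ± 0.07 (adjusted p = 0.00317) and -0.61 ± 0.07 (adjusted p = 1.98e-09) on these days. SLC2A3 passed at day 90 only (0.80 ± 0.22, adjusted p = 0.00643). The symbols of SLC2A12 and HK1 came from lists chosen on these samples, so their tests are not independent of that choice. Of the 88 pathway genes, 8 had a positive and 9 a negative called difference at day 90, beside 12.8% of all probes. At day 110 these counts were 7 and 12, beside 29.0%.

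In the group of thioredoxin, the alpha-arrestins to which TXNIP belongs and the glucose-sensing factors that drive TXNIP, 6 of 10 genes rose and 3 fell. ARRDC2 rose by 2.22 ± 0.20 and MLXIPL (ChREBP) by 1.97 ± 0.09. TXN, the thioredoxin bound by TXNIP, fell by 0.75 ± 0.04, and ARRDC4 by 0.40 ± 0.14, past the threshold in 13 of 16 settings. Among known regulators of SLC2A4 transcription, 3 of 6 rose and 1 fell. KLF15 rose by 1.87 ± 0.10 and MEF2D by 1.04 ± 0.11, and MEF2C fell by 0.92 ± 0.07.

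The size of some of these changes depended on the processing. Across the settings run, the age change ranged from 0.92 to 2.01 for MLXIPL, from 0.43 to 1.17 for MEF2D, from 0.26 to 0.62 for SLC2A3, from 0.20 to 0.46 for INPPL1 and from -0.77 to -0.44 for TXN, past the threshold in each. The range was -1.54 to -0.46 for PIK3R2, also past in each setting. It was 0.07 to 0.36 for PIK3CA and -0.76 to -0.11 for TBC1D1 (each past in 15 of 16 settings), and -0.43 to -0.07 for SH2B1 (past in 16 of 17).

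**Figure D4:**
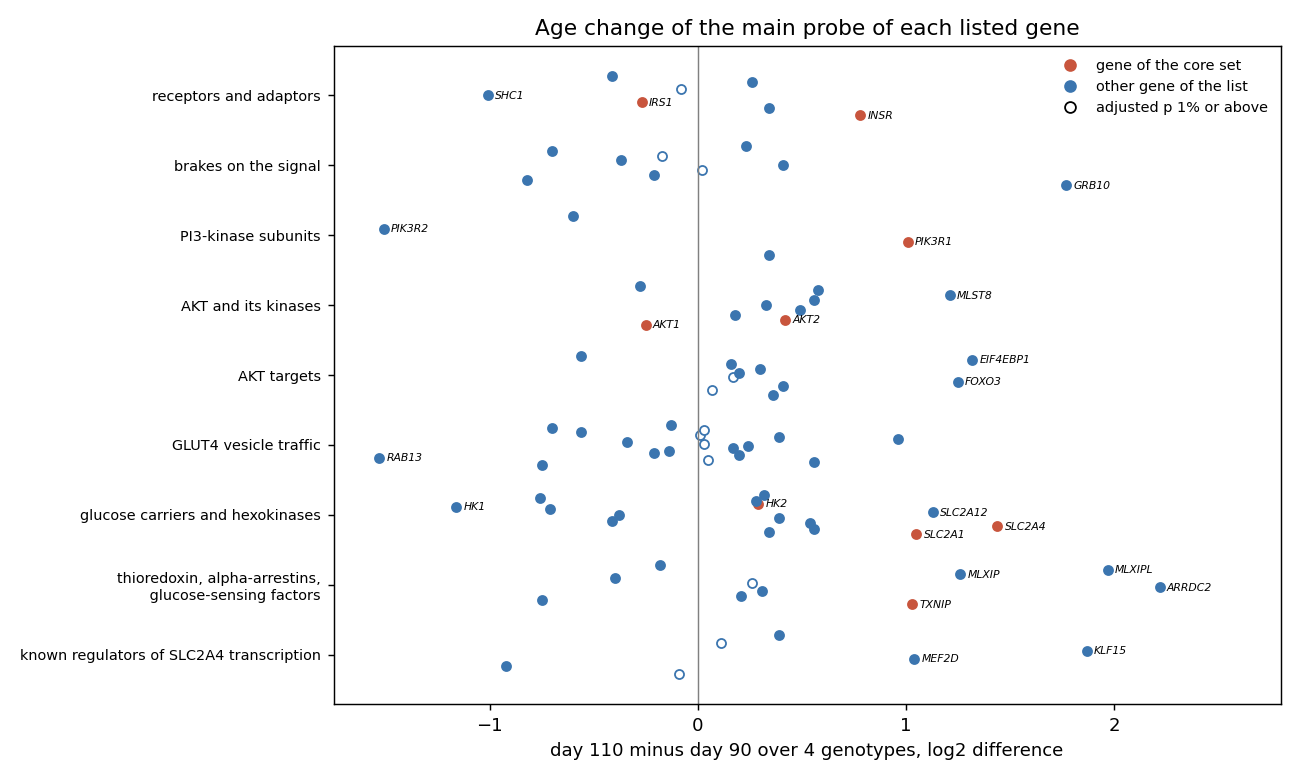
Day 110 minus day 90 over the 4 genotypes (horizontal axis, log2 difference) for the main probe of each of the 88 pathway genes measured, in 9 groups (vertical axis). Filled points passed the threshold, and symbols are given for the genes described first and for changes above 1. Each group holds genes on both sides of 0, from RAB13 at -1.53 to ARRDC2 at 2.22.

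By rule, a most similar gene was sought for members whose 8 group means spanned at least 1 on the log2 scale, among 10339 other genes, by the root mean square difference of the centred means. For SLC2A4 (span 1.91) it was ACSL1, which activates long-chain fatty acids, with a difference of 0.05. For TXNIP (span 1.36) it was RRM2B at 0.05, for PIK3R1 (1.31) FAM134B at 0.09, and for SLC2A1 (1.39) KIF13B at 0.09. The gene next in rank was at 0.08 for SLC2A4, 0.06 for TXNIP, 0.09 for PIK3R1 and 0.10 for SLC2A1, so other genes were nearly as close. These are descriptions over 8 group means, which share their arrays.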

How the data were processed

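The authors labelled RNA of each fetus with Cy3 and scanned it on Agilent porcine arrays with Agilent Feature Extraction 10.10.1.1. The deposited scanner files hold spot intensity values, not normalized between arrays. The authors also deposited quantile-normalized log2 values of 44368 spots, used as an alternative. Their rows were matched to the place of a spot in the scanner list, a match borne out by correlations of 0.982 to 0.994 per array, and array medians were 8.09 to 8.10.

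Here the background-corrected intensity was quantile normalized and log2 transformed. Values of spots marked non-uniform, 4 to 802 on an array, were dropped, and spots of 1 probe averaged. Probes stayed in when 80% or more of the arrays in any group marked them well above background (42436 probes; 60306 spots that are not controls). limma 3.58.1 (R 4.3.3) fitted the 8 groups and a parental model (age, maternal, paternal and their pairwise interactions), with two-sided moderated tests and Benjamini-Hochberg adjustment at 1%. The authors' random sow effect was left out, since the labels name no sow, so p-values treat littermates as independent. The fit was tested on simulated data. The number of arrays per group limits the precision.

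Symbols of kept probes came from the array (18547), the study's lists (1747) or RefSeq accessions of Sscrofa11.1 (331). Other named genes are, per list, up to 2 with the largest rise and 2 with the largest fall past the threshold, and the most similar gene of members that span 1 or more. Members and lists were chosen with earlier results of these data known. Alternatives changed the signal column, background correction, scaling, filter, marked spots, slide, threshold, probe rule and samples. No genome was used, so no coordinates are given. Some genes of the lists and 1 probe stretch are not reported here.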

Additional observations from a re-analysis of the deposited data

Results flagged for a closer look

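Of 72 sets of values (9 main probes in 8 groups), 3 held a fetus whose gap to its nearest neighbour was a large part of the range of its group by Dixon's criterion at 95%. Chance alone gives about 1 in 20 such sets. For IRS1, LW replicate 3 of day 110 read 12.00, below the next fetus at 12.52. For AKT2, LW replicate 4 of day 90 read 3.85, below the next at 4.23, on a probe close to background. For TXNIP, MS replicate 1 of day 110 read 17.65, above the next at 17.34.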

How the results depend on the processing

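Of 284 counts of genes past the threshold recomputed under 34 alternatives, 274 stayed within 1.5 times the main count, and 10 did not. The count of genes that differed between MS and LW at day 90 (2) was 1 with the median over probes. At day 110 (0) it was 1 with 75th-percentile scaling (TXNIP) and 1 with the median over probes (IRS1). For the MS age change minus that of LW, the count (0) was 1 with probes well above background on all arrays (AKT1), 1 with the slide as a block (SLC2A4) and 2 at an adjusted p under 5%. It ranged from 0 to 1 when each LW or MS fetus of day 90 was left out, an alternative chosen after seeing the data (AKT1 without LW replicate 3, SLC2A4 without MS replicate 8). For maternal genotype by age (0) the count was 2 at 5% (AKT1 and SLC2A1), and from 0 to 1 when each MSLW fetus of day 110 was left out.

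Of 1968 values of single genes, 1939 stayed on their side of the threshold with no called value changing sign, although 54 of these, past in neither fit, had the other sign. Of the rest, 14 became past the threshold, 11 were lost and 4 reversed. The 4 were all IRS1, with 0.01 over genotypes under 75th-percentile scaling and 0.29 over genotypes, 0.08 in LW and 0.47 in MS with the median over probes. 75th-percentile scaling moved the median age change of all probes from 0.04 to 0.09. AKT1 in MS minus LW at day 90 passed in 33 of 33 fits (-0.54 to -0.46), and SLC2A4 in 32 of 33 (0.40 to 0.79). IRS1 in LW was lost under 75th-percentile scaling (-0.18), and SLC2A1 in MSLW with the median over probes (0.46). AKT1 in MSLW passed at 5% (-0.37), with the stricter filter (-0.37) and without MSLW replicate 1 of day 110 (-0.41). The cause of these shifts was not tested. Fetuses were not paired by replicate number, since the labels give none, and the slide, shared by the groups, served as the block. AKT2 and the dimmest IRS1 probe, well above background on 50 and 44 of 61 arrays, are limited by their signal, and MSLW at day 110 by its 5 fetuses.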

Other observations

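The array holds a probe that its description likens to insulin receptor substrate 2, with no gene symbol, so it lies outside the rule for IRS2 and was picked after its values were seen. Its log2 signal changed by 0.52 ± 0.11 with age over the genotypes (SE; limma adjusted p = 2.16e-05). In MS it went from 4.85 ± 0.33 (SD, n = 8) at day 90 to 5.81 ± 0.53 (SD, n = 7) at day 110, a change of 0.96 ± 0.22 (adjusted p = 0.000119), and in LW from 5.19 ± 0.43 (SD, n = 8) to 5.42 ± 0.34 (SD, n = 9), a change of 0.23 ± 0.20 (adjusted p = 0.361). The difference between the MS and LW changes was 0.73 ± 0.30 and did not pass (adjusted p = 0.0893).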
